A study of Mus musculus with 15 samples.

Results

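Megakaryocyte and platelet genes were followed in lineage-negative bone marrow cells of 4 genotypes. The set holds 33 genes of 45706 in the deposited count table, and all 33 were among the 18983 genes kept by the filter on low counts. It is a list of gene symbols known for the megakaryocyte lineage that was drawn up with earlier results of these same counts in view. Which values guided the choice is not recorded, so every comparison of these genes between genotypes below is a description and supports no claim about the list. By role, the list comprises 10 surface adhesion receptors, 7 genes of granules, coagulation and protease control, 9 signalling receptors, channels and adaptors, 2 enzymes of lipid mediators, 3 cytoskeletal genes and 2 transcription factors.

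The study asked what loss of PUMA, a BH3-only protein that triggers apoptosis downstream of p53, does to blood formation when telomeres are short. The donors were WT mice, Puma-/- mice (Bbc3, the gene of PUMA, deleted), G3 mTerc-/-Puma+/+ mice (the third generation without mTerc, the RNA template of telomerase) and G3 mTerc-/-Puma-/- mice lacking both, whose libraries are labelled TercPuma. Their stem and progenitor cells, marked by CD45.2, were transplanted serially into lethally irradiated CD45.1 mice. All 15 libraries came from marrow of secondary recipients (of the femur, by the labels of these samples), depleted on magnetic beads of cells carrying T-cell, B-cell, myeloid, erythroid or NK-cell surface markers. The antibody panel held no marker of megakaryocytes, no sort for donor cells is described for the RNA, and cells of the host may remain. There were 3 WT, 4 Puma-/-, 4 G3 mTerc-/-Puma+/+ and 4 TercPuma libraries, and the labels give neither the age of the animals nor whether each library was a separate recipient. The p-values therefore measure the spread between these libraries. TercPuma replicate 2 was not drawn in the study's heatmaps, so the fit used the other 14 libraries, and this replicate is given apart.

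Library totals ranged from 102790519 to 158367059 counts, with a median of 112046464. Values are CPM, the counts scaled to a common library total with trimmed-mean (TMM) factors, and values of a group are listed in order of replicate number (1, 3 and 4 for the libraries labelled TercPuma). Bbc3 stood at 20.7, 9.71 and 23.6 CPM in WT, 5.18, 6.83, 5.04 and 5.07 in Puma-/-, 14.7, 20.8, 20.6 and 11.8 for G3 mTerc-/-Puma+/+ and 17.1, 15.6 and 13.5 in those labelled TercPuma, where replicate 2 held 16.1. Bbc3 was thus below WT in Puma-/- (log2 fold change -1.70, SE 0.27, edgeR quasi-likelihood adjusted p = 0.0276) but stood near WT in the libraries labelled TercPuma (-0.22, adjusted p = 1), so they are named by their label throughout. Terc was counted 7, 17 and 10 times in WT, 5, 4, 9 and 11 times in Puma-/-, and 0 or 1 time in each mTerc-/- library. Among the defining genes of progenitors, Kit stood at 114 to 165 CPM, Cd34 at 86.1 to 229.6 CPM and Flt3 at 3.45 to 187 CPM over the 15 libraries. The lowest Cd34 and Flt3 values were those of TercPuma replicate 2.

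Megakaryocytes are large polyploid cells of the marrow that bud off platelets. Their genes are switched on under GATA1, RUNX1, FLI1 and NF-E2 as progenitors mature, and platelets inherit the receptors, granules and cytoskeleton that the megakaryocyte has made. Several of these genes, such as Itga2b and Pf4, are also transcribed in a subset of stem cells biased towards platelets, and Plek, Bin2, Fli1 and Nfe2 are used in other blood cells as well. In bulk RNA, fewer megakaryocytic cells and less of these RNAs per cell cannot be told apart.

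The Puma-/- libraries held the most megakaryocyte and platelet RNA of the 4 genotypes. The mean log2 CPM of the 33 genes was 4.51 ± 0.21 (SD, n = 4, range 4.31 to 4.79) in Puma-/-, 3.76 ± 0.46 (n = 3, 3.23 to 4.06) in WT, 3.58 ± 0.24 (n = 4, 3.26 to 3.82) for G3 mTerc-/-Puma+/+ and 3.37 ± 0.092 (n = 3, 3.28 to 3.46) in those labelled TercPuma. Replicate 2 of the latter stood at 3.71. No Puma-/- library overlapped any other library in this mean, whereas the other 3 genotypes overlapped each other, WT replicate 3 having the lowest value of all at 3.23. Of the 33 genes, 20 had their highest value of the 14 libraries in Puma-/- replicate 3 and 6 in Puma-/- replicate 2. The lowest value was that of G3 mTerc-/-Puma+/+ replicate 2 for 10 genes, of TercPuma replicate 3 for 8 and of WT replicate 3 for 6.

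**Figure D1:**
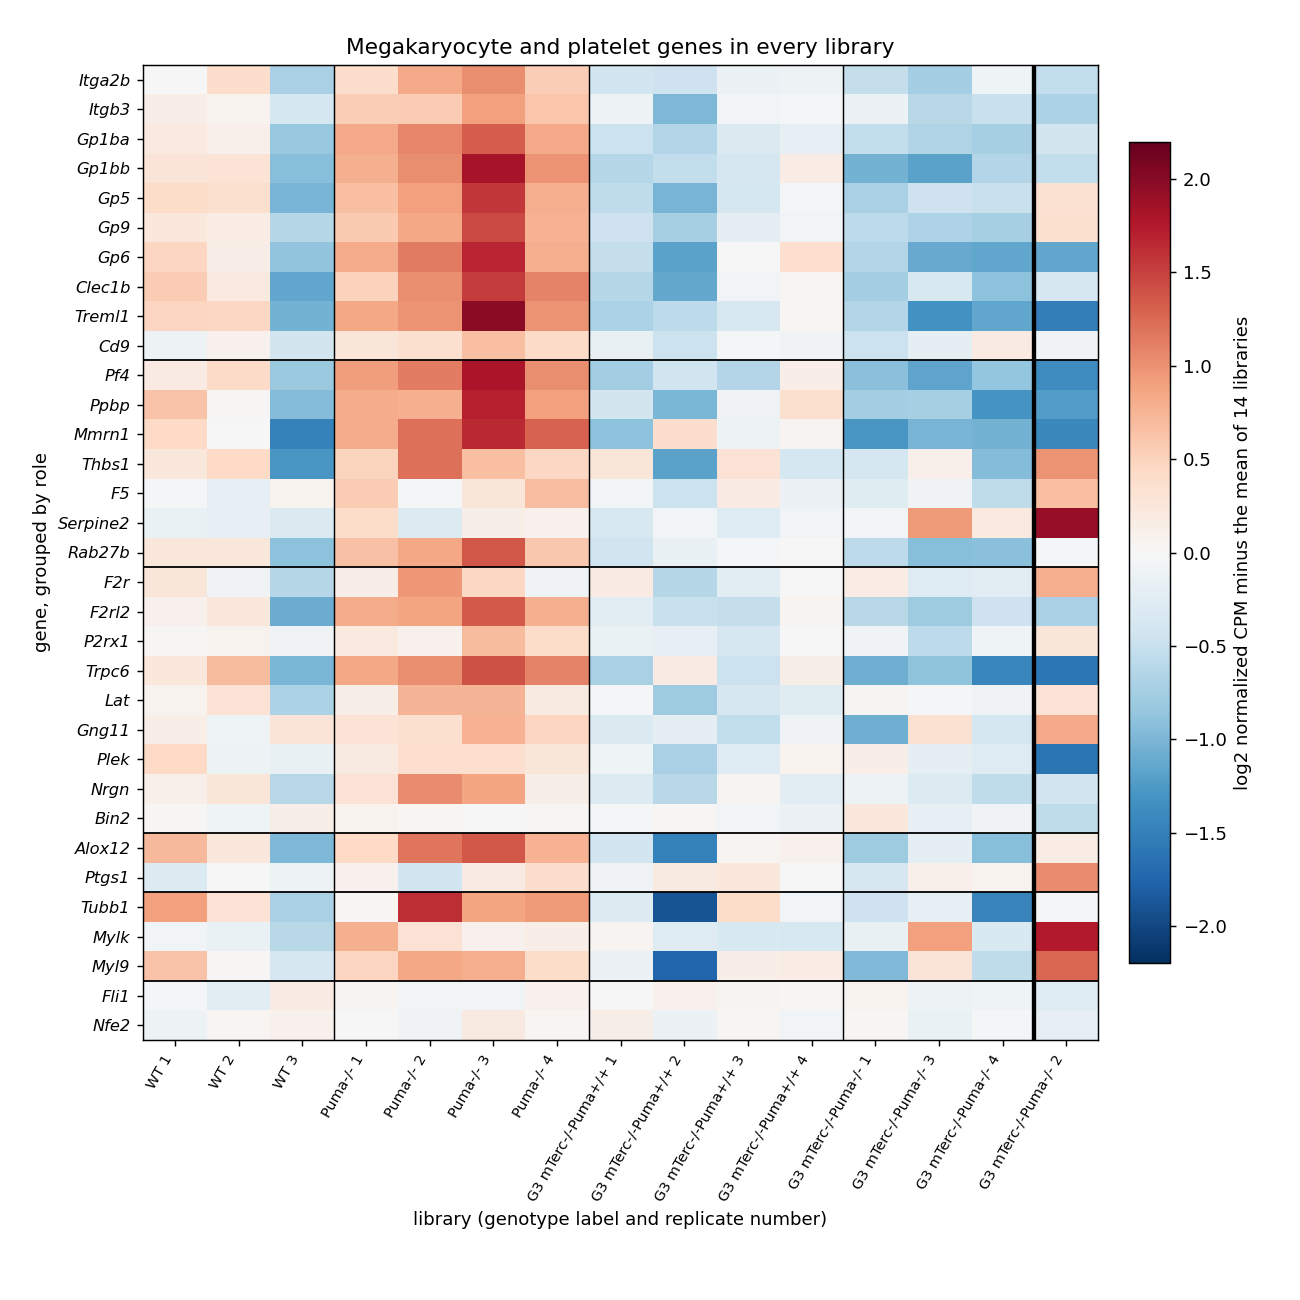
Log2 CPM of the 33 genes (rows, grouped by role) in each of the 15 libraries (columns, TercPuma being named G3 mTerc-/-Puma-/-), as the difference from the gene's mean over the 14 libraries of the fit; replicate 2 labelled G3 mTerc-/-Puma-/- stands to the right of the thick line. Most rows are highest in the 4 Puma-/- columns, while Bin2, Fli1 and Nfe2 show little difference between columns.

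The levels of the genes also differed from each other by orders of magnitude. Per kilobase of exon, in WT, Bin2 was the most abundant member at 96.0 CPM per kb, followed by Nfe2 (54.1), Pf4 (47.3), Itga2b (26.7) and, after Plek, Ppbp (24.7). The least abundant were Rab27b at 0.474, Trpc6 at 0.433 and Gp6 at 0.134 CPM per kb. The members' median was 5.09 CPM per kb, against 2.33 for all genes tested, and 22 members lay above the latter. In Puma-/-, the order changed at the top, where Pf4 came first at 111 CPM per kb and Bin2 next at 96.7.

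The adhesion receptors are described first. The GPIb-IX-V complex, encoded by Gp1ba, Gp1bb, Gp9 and Gp5, tethers platelets to von Willebrand factor. In CPM, Gp1ba stood at 7.61, 7.04 and 3.67 in WT, 11.6, 13.8, 16.4 and 11.6 in the Puma-/- libraries, 4.70, 4.17, 5.25 and 5.74 in those of G3 mTerc-/-Puma+/+ and 4.50, 4.11 and 3.92 in those labelled TercPuma. All Puma-/- values lay above all others, and the remaining genotypes overlapped. Gp9, which encodes the small GPIX subunit, stood at 6.23, 5.96 and 3.46 in WT, 7.97, 9.59, 14.6 and 9.01 in the Puma-/- libraries, 3.89, 3.21, 4.67 and 5.12 in those of G3 mTerc-/-Puma+/+ and 3.57, 3.32 and 3.19 in those labelled TercPuma. Gp5, which encodes the subunit cleaved by thrombin, stood at 9.96, 9.61 and 3.73 in WT, 11.9, 14.1, 22.4 and 13.2 in the Puma-/- libraries, 5.14, 3.72, 5.81 and 7.37 in those of G3 mTerc-/-Puma+/+ and 4.63, 5.52 and 5.37 in those labelled TercPuma. Both genes shared the pattern of Gp1ba, with Puma-/- above every other library of the fit and WT replicate 3 well under the other WT libraries.

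Against Puma-/-, Gp1ba fell by 1.43 on the log2 scale in G3 mTerc-/-Puma+/+ (SE 0.21, edgeR adjusted p = 0.0103) and by 1.68 in the libraries labelled TercPuma (SE 0.23, adjusted p = 0.00594). Gp9 fell by 1.29 (SE 0.23, adjusted p = 0.0310) and by 1.61 (SE 0.25, adjusted p = 0.0143), respectively. For Gp5 the first difference passed the threshold (-1.48, adjusted p = 0.0433) and the second, -1.57, did not (adjusted p = 0.0728). Against WT, Puma-/- was higher by 1.13 for Gp1ba, 0.98 for Gp9 and 0.99 for Gp5, and none passed (adjusted p 0.168, 0.311 and 0.391).

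Gp1bb, encoding the GPIb beta chain, stood at 4.87, 4.89 and 2.07 in WT, 6.87, 8.06, 14.01 and 7.93 in the Puma-/- libraries, 2.57, 2.73, 3.08 and 4.44 in those of G3 mTerc-/-Puma+/+ and 1.93, 1.77 and 2.56 in those labelled TercPuma. The Puma-/- libraries were the highest here too, and those labelled TercPuma lay below every G3 mTerc-/-Puma+/+ library. Gp1bb fell by 1.52 (SE 0.30, adjusted p = 0.0429) and by 2.14 on the log2 scale (SE 0.34, adjusted p = 0.0155) in the same comparisons with Puma-/-. On the annotation, 1902 exonic bases, 91.1% of the gene, also belong to Sept5 on the same strand, which held 13.4 CPM on average, so how reads were split between the pair is uncertain.

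Itga2b and Itgb3 encode the chains of the integrin that binds fibrinogen. Itga2b, the most abundant of the receptors per kilobase, stood at 149, 196 and 91.3 in WT, 197, 268, 306 and 219.7 in the Puma-/- libraries, 113, 109.5, 138 and 139.6 in those of G3 mTerc-/-Puma+/+ and 105, 89.5 and 139.9 in those labelled TercPuma. The gap between the highest WT library and the lowest Puma-/- library was under 1 CPM. Itgb3 stood at 55.3, 52.8 and 38.4 in WT, 73.3, 73.7, 94.1 and 76.9 in the Puma-/- libraries, 46.5, 25.2, 47.9 and 48.8 in those of G3 mTerc-/-Puma+/+ and 45.7, 32.8 and 35.9 in those labelled TercPuma, and its Puma-/- libraries lay clearly apart. Itgb3 fell by 0.92 on the log2 scale in G3 mTerc-/-Puma+/+ against Puma-/- (SE 0.19, adjusted p = 0.0491). Itga2b, at -0.99, was just outside the threshold (adjusted p = 0.0507), and in the libraries labelled TercPuma neither passed (-1.15 for Itga2b, -1.06 for Itgb3).

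Gp6, encoding the collagen receptor GPVI, was the member with the fewest reads per kilobase and stood at 1.09, 0.866 and 0.425 in WT, 1.38, 1.72, 2.5 and 1.36 in the Puma-/- libraries, 0.544, 0.345, 0.787 and 1.01 in those of G3 mTerc-/-Puma+/+ and 0.498, 0.361 and 0.353 in those labelled TercPuma. Its Puma-/- libraries were the highest, and in the libraries labelled TercPuma it fell by 2.10 against Puma-/- (SE 0.40, adjusted p = 0.0474). Treml1, which encodes the alpha-granule receptor TLT-1, stood at 8.12, 8.01 and 2.84 in WT, 10.5, 11.6, 22.97 and 11.5 in the Puma-/- libraries, 3.60, 3.93, 4.56 and 5.97 in those of G3 mTerc-/-Puma+/+ and 3.71, 2.32 and 2.64 in those labelled TercPuma. It fell by 1.65 in G3 mTerc-/-Puma+/+ (SE 0.34, adjusted p = 0.0453) and by 2.29 in the libraries labelled TercPuma (SE 0.39, adjusted p = 0.0236) against Puma-/-. Clec1b, the gene of the podoplanin receptor CLEC-2, averaged 3.02 ± 1.53 CPM in WT, 6.21 ± 1.76 in Puma-/-, 2.26 ± 0.771 for G3 mTerc-/-Puma+/+ and 1.87 ± 0.373 in those labelled TercPuma (SD over the n given above). The tetraspanin gene Cd9 averaged 42.9, 63.1, 41.4 and 42.2 CPM in that order. For both, every library of either mTerc-/- genotype lay below every Puma-/- library, and neither passed the test (Clec1b adjusted p = 0.0657 and 0.0886). Of the 10 adhesion receptors, 6 were called lower for G3 mTerc-/-Puma+/+ and 5 in those labelled TercPuma, each against Puma-/-, where 0.564% and 0.205% of all genes tested were called lower.

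**Figure D2:**
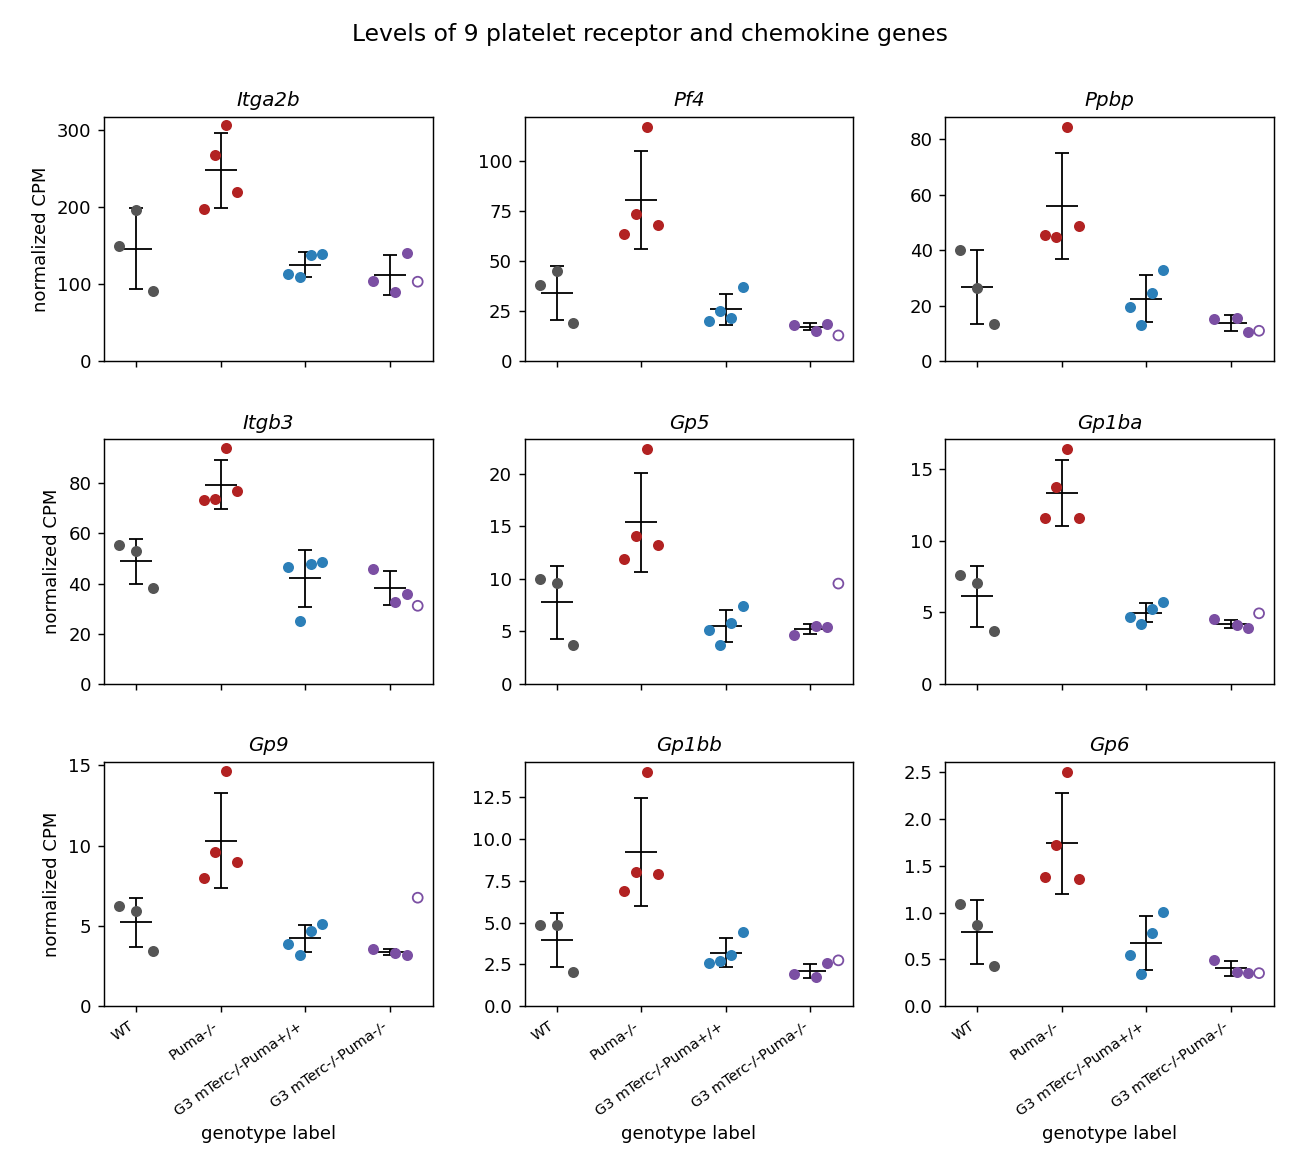
CPM of 9 defining genes in each library (points), with the mean and SD of each genotype; the open circle is replicate 2 labelled G3 mTerc-/-Puma-/-, which is outside the mean. In each panel the 4 Puma-/- points lie above all others of the fit, and replicate 3 of Puma-/- is the highest.

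Among the granule genes, Pf4 and Ppbp encode the chemokines that fill the alpha granules, platelet factor 4 and pro-platelet basic protein. They are neighbours on chromosome 5 (Pf4 at chr5:90772435-90773383 and Ppbp at chr5:90768518-90770063, GRCm38, both on the plus strand), 2371 bases apart with 0 genes between them. Pf4 stood at 38.1, 45.0 and 19.1 in WT, 63.5, 73.2, 117 and 68.1 in the Puma-/- libraries, 19.9, 25, 21.5 and 37.2 in those of G3 mTerc-/-Puma+/+ and 17.9, 15.2 and 18.7 in those labelled TercPuma. Its Puma-/- libraries lay above all others, and those labelled TercPuma lay below every library of every other genotype. Ppbp stood at 40.2, 26.6 and 13.3 in WT, 45.5, 44.8, 84.4 and 48.6 in the Puma-/- libraries, 19.5, 12.98, 24.6 and 33.1 in those of G3 mTerc-/-Puma+/+ and 15.4, 15.6 and 10.6 in those labelled TercPuma. Its Puma-/- libraries again lay on top, while WT replicate 3, at 13.3 CPM, lay within the range of the libraries labelled TercPuma.

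Pf4 fell by 1.63 on the log2 scale in G3 mTerc-/-Puma+/+ (SE 0.27, adjusted p = 0.0213) and by 2.22 in the libraries labelled TercPuma (SE 0.31, adjusted p = 0.00594) against Puma-/-. Ppbp fell by 2.01 in the latter comparison (SE 0.39, adjusted p = 0.0476), and in the former, at -1.31, it did not pass (adjusted p = 0.0804).

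Mmrn1 encodes multimerin, which carries factor V in the alpha granule, and stood at 5.54, 4.08 and 1.46 in WT, 7.21, 9.49, 12.8 and 10.04 in the Puma-/- libraries, 2.18, 5.38, 3.80 and 4.26 in those of G3 mTerc-/-Puma+/+ and 1.68, 2.02 and 2.00 in those labelled TercPuma. Rab27b, encoding a small GTPase that moves granules to the membrane, stood at 6.19, 6.20 and 2.79 in WT, 8.14, 9.34, 13.4 and 7.86 in the Puma-/- libraries, 3.84, 4.63, 5.07 and 5.14 in those of G3 mTerc-/-Puma+/+ and 3.49, 2.70 and 2.74 in those labelled TercPuma. For both genes the libraries labelled TercPuma lay below every G3 mTerc-/-Puma+/+ library but overlapped the WT libraries. Mmrn1 fell by 2.38 (SE 0.40, adjusted p = 0.0236) and Rab27b by 1.70 (SE 0.28, adjusted p = 0.0166) in the libraries labelled TercPuma against Puma-/-. In G3 mTerc-/-Puma+/+ they stood at -1.34 (adjusted p = 0.0804) and -1.05 (adjusted p = 0.0593) against Puma-/-.

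The other granule and coagulation genes did not pass in any comparison. Thbs1, the gene of thrombospondin, averaged 14.8 CPM in WT, 25.3 in Puma-/-, 13.8 for G3 mTerc-/-Puma+/+ and 11.9 in those labelled TercPuma. F5, the gene of coagulation factor V, averaged 14.95, 20.1, 14.3 and 12.6 CPM in that order. Serpine2, which encodes the thrombin inhibitor protease nexin-1, went its own way, with 51.7 ± 3.17 CPM in WT, 64.5 ± 12.6 in Puma-/-, 52.9 ± 5.45 for G3 mTerc-/-Puma+/+ and 80.9 ± 30.2 in those labelled TercPuma. In the last group it ranged from 57.9 to 115, the highest value being that of replicate 3. The stromal genes of replicate 3 also summed to the highest CPM of these 3 libraries. Their sum was highest of all in G3 mTerc-/-Puma+/+ replicate 1 (2794 CPM), where Serpine2 stood at 47.0 CPM. In TercPuma replicate 2 the values were 2309 and 225.5 CPM. A link between the stromal genes and Serpine2 was not tested.

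Among the signalling genes, F2rl2 encodes PAR3, a thrombin receptor of mouse platelets, and stood at 6.43, 7.13 and 2.84 in WT, 10.7, 10.96, 15.3 and 10.4 in the Puma-/- libraries, 5.05, 4.27, 4.20 and 6.28 in those of G3 mTerc-/-Puma+/+ and 3.97, 3.49 and 4.40 in those labelled TercPuma. Trpc6, a cation channel gated by diacylglycerol, stood at 2.34, 3.24 and 1.001 in WT, 3.61, 4.04, 5.28 and 4.26 in the Puma-/- libraries, 1.21, 2.27, 1.44 and 2.18 in those of G3 mTerc-/-Puma+/+ and 0.951, 1.08 and 0.737 in those labelled TercPuma. Puma-/- was above all other libraries of the fit for both, and for Trpc6 the libraries labelled TercPuma lay below every G3 mTerc-/-Puma+/+ library. Against Puma-/-, F2rl2 fell by 1.26 in G3 mTerc-/-Puma+/+ (SE 0.25, adjusted p = 0.0429) and by 1.58 in the libraries labelled TercPuma (SE 0.28, adjusted p = 0.0284). Trpc6 fell by 2.22 in the latter (SE 0.36, adjusted p = 0.0162) and stood at -1.28 in the former (adjusted p = 0.0690).

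The remaining 7 signalling genes did not pass in any comparison. F2r, the gene of the thrombin receptor PAR1, P2rx1, an ATP-gated channel, Lat, an adaptor below the collagen receptor, Gng11, a G-protein gamma subunit, Plek, the protein kinase C substrate pleckstrin, and Nrgn, the calmodulin-binding neurogranin, lay between -0.89 (Nrgn) and -0.53 (Plek) in G3 mTerc-/-Puma+/+ against Puma-/-. They lay between -0.94 (Nrgn) and -0.40 (Plek) in the libraries labelled TercPuma. Bin2, a BAR-domain gene shared with other leukocytes, was nearly level at 243, 245, 232 and 239 CPM in WT, Puma-/-, G3 mTerc-/-Puma+/+ and the libraries labelled TercPuma.

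Of the lipid enzymes, Alox12, the platelet 12-lipoxygenase, averaged 5.76 ± 2.98 CPM in WT, 10.3 ± 2.87 in Puma-/-, 4.20 ± 1.72 for G3 mTerc-/-Puma+/+ and 3.42 ± 0.951 in those labelled TercPuma. Ptgs1, the cyclooxygenase COX-1 that feeds thromboxane synthesis, averaged 35.8, 41.6, 41.9 and 38.03 CPM. Neither passed in any comparison, and Ptgs1 lay within -0.13 and 0.01 of Puma-/- on the log2 scale in the mTerc-/- genotypes.

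The cytoskeletal gene Tubb1 encodes the beta-tubulin of the platelet's marginal band and stood at 8.39, 5.62 and 2.76 in WT, 4.62, 13.9, 8.20 and 8.59 in the Puma-/- libraries, 3.67, 1.20, 5.97 and 4.31 in those of G3 mTerc-/-Puma+/+ and 3.29, 3.98 and 1.62 in those labelled TercPuma. Its Puma-/- values spread widely and overlapped WT and G3 mTerc-/-Puma+/+. Myl9 and Mylk, a myosin light chain and its kinase, averaged 7.63 and 9.85 CPM in Puma-/- against 5.43 and 6.47 in WT. No cytoskeletal gene passed in any comparison, the largest difference being that of Tubb1 in the libraries labelled TercPuma against Puma-/- (-1.57, SE 0.53, adjusted p = 0.382).

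The transcription factors Fli1, of the ETS family, and Nfe2, the NF-E2 subunit needed for platelet release, did not follow the receptors. Fli1 averaged 68.01 ± 9.77, 69.2 ± 3.71, 71.04 ± 1.85 and 66.98 ± 5.03 CPM in WT, Puma-/-, G3 mTerc-/-Puma+/+ and the libraries labelled TercPuma. Nfe2 averaged 162 ± 12.1, 165 ± 13.7, 159 ± 12.2 and 155 ± 8.97 CPM. All 4 groups overlapped for both genes.

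The 6 genes that fell in both comparisons with Puma-/- were Gp1ba, Gp1bb, Gp9, Treml1, Pf4 and F2rl2. Both comparisons share the 4 Puma-/- libraries. The promoters of the 4 of them whose 250 bases before the start hold no annotated exon are shown because these genes moved together in the counts; they are from RefSeq on GRCm38.p6, all on the plus strand, at chr11:70638872-70639121 for Gp1ba, chr6:87777820-87778069 for Gp9, chr17:48359666-48359915 for Treml1 and chr5:90772185-90772434 for Pf4. Capitals mark matches on either strand. The GATA letters searched for were AGATAA and, as a variant, TGATAA. The letters AGGAAG stand for ETS factors and TGAGTCA for the core bound by NF-E2, and no motif was allowed to differ from these letters.
Gp1ba: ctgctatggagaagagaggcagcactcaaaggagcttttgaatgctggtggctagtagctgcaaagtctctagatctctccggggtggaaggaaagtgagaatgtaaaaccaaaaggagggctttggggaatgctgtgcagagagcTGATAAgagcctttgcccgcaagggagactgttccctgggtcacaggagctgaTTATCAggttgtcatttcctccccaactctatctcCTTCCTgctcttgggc
Gp9: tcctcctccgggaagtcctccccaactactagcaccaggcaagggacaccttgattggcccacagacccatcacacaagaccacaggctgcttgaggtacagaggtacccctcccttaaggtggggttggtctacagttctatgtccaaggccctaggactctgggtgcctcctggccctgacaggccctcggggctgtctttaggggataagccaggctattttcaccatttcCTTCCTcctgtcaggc
Treml1: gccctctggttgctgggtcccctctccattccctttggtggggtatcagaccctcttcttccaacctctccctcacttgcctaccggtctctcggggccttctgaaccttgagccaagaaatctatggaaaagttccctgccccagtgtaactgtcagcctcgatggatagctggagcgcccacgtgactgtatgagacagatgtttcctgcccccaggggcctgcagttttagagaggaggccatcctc
Pf4: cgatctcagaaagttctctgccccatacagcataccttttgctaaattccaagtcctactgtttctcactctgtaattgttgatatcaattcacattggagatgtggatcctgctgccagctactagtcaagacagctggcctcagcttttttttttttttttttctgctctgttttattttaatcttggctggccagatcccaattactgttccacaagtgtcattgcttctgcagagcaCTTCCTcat
With the base before the start counted as -1, the GATA letters of Gp1ba begin at -104 and -51 and its ETS letters at -16, while the ETS letters of Gp9 begin at -16 and those of Pf4 at -9. No listed motif stands in the window of Treml1. Of the 26 members with a promoter in the table, 7 (26.9%) held the GATA letters, against 16.6% of 32851 promoters of this length. The ETS letters stood in 12 (46.2% against 29.5%) and the NF-E2 core in 3 (11.5% against 4.46%). A match is a string of letters and not a known binding site.

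Taking the comparisons in turn, all 33 members stood above WT in Puma-/-, with a median log2 fold change of 0.70 and a range of 0.011 to 1.42, where all genes tested had a median of 0.0048. The largest values belonged to Mmrn1 (1.42, SE 0.39, adjusted p = 0.341), Pf4 (1.24, SE 0.30, adjusted p = 0.306) and Gp1bb (1.23, SE 0.33, adjusted p = 0.341). By edgeR, 0 members passed, as against 0.0263% of genes tested called higher. At an unadjusted p under 0.05, in either direction, there were 21 members and 1926 of all 18983 genes. DESeq2 called 7 members among 136 genes in all, and limma-voom called 0 among 11. For 19 members every Puma-/- library lay above every WT library, as it did for 5.47% of all genes tested. WT replicate 3 was low in most members, and without it the median was 0.49.

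Against WT, the mTerc-/- genotypes differed less. In G3 mTerc-/-Puma+/+, 28 members stood below WT, with a median of -0.23 and the largest values in Tubb1 (-0.56), Gp5 (-0.49) and Treml1 (-0.49), all at adjusted p = 0.998. None passed (0 members, as against 0.0211% of genes called lower), and 0 had an unadjusted p under 0.05, as against 733 of all genes. In the libraries labelled TercPuma, 29 members stood below WT, with a median of -0.39 and the largest values in Trpc6 (-1.25, adjusted p = 0.508), Treml1 (-1.13, 0.640) and Pf4 (-0.98, 0.553). Here too 0 passed (0.0158% of genes called lower), and 11 had an unadjusted p under 0.05, as against 1035 of all genes. DESeq2 and limma-voom also called 0 in both. Without WT replicate 3 the medians were -0.45 and -0.68, respectively.

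Against Puma-/-, both mTerc-/- genotypes were lower in nearly the whole list. In G3 mTerc-/-Puma+/+, 31 of 33 members stood below Puma-/-, with a median of -0.92 (all genes -0.00049), and 8 passed, all lower, while 0.564% of genes tested were called lower. These were Itgb3, Gp1ba, Gp1bb, Gp5, Gp9, Treml1, Pf4 and F2rl2. For 25 members every G3 mTerc-/-Puma+/+ library lay below every Puma-/- library, as for 5.82% of genes tested. The count moved widely with single libraries. It was 1 without Puma-/- replicate 2, Puma-/- replicate 4, G3 mTerc-/-Puma+/+ replicate 2 or G3 mTerc-/-Puma+/+ replicate 3, and 2 without G3 mTerc-/-Puma+/+ replicate 1. Without WT replicate 1, Puma-/- replicate 1 or 3, G3 mTerc-/-Puma+/+ replicate 4, or TercPuma replicate 1, 3 or 4, it was 3, and without WT replicate 3 it was 14. Gp1ba was called in all 14 of these fits, for which the counts of all genes called are not given here.

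In the libraries labelled TercPuma, 32 members stood below Puma-/-, with a median of -1.08, and 11 passed, all lower, while 0.205% of genes tested were called lower. These were Gp1ba, Gp1bb, Gp9, Gp6, Treml1, Pf4, Ppbp, Mmrn1, Rab27b, F2rl2 and Trpc6. For 25 members the groups did not overlap, as for 5.57% of genes tested. The count was 0 without TercPuma replicate 3, 2 without replicate 4, 4 without replicate 1, 6 without Puma-/- replicate 3 and 7 without Puma-/- replicate 4, and 15 without WT replicate 3. Without TercPuma replicate 3, the median was nevertheless -1.38. The counts of all genes called in these fits are not given here either.

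**Figure D3:**
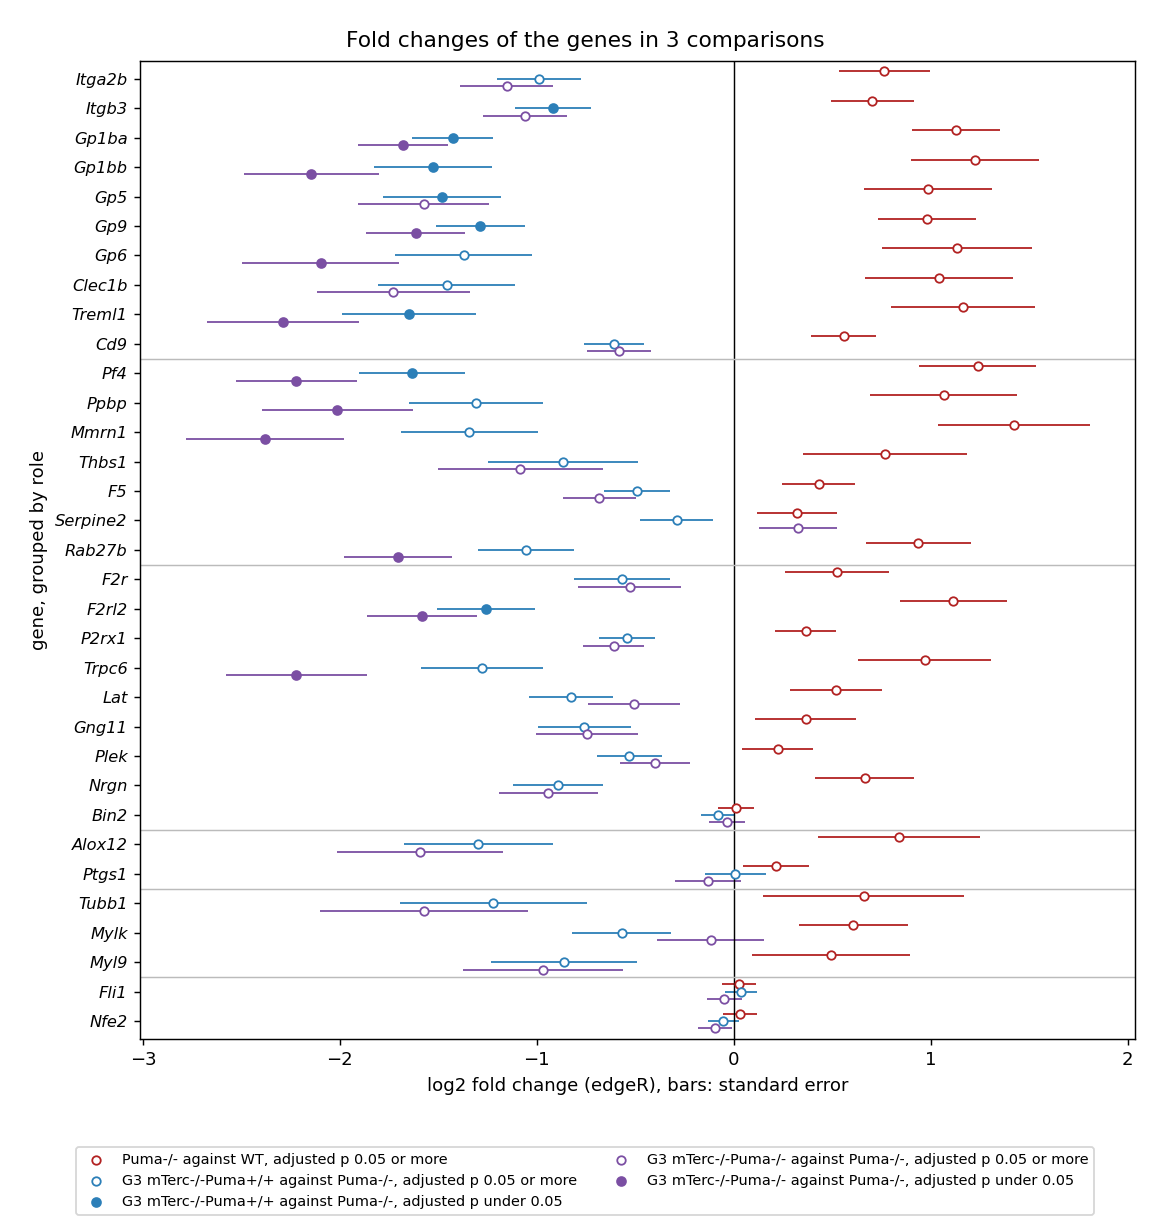
Log2 fold change (point) and SE (bar) of each member in Puma-/- against WT and in both mTerc-/- genotypes against Puma-/-; filled points passed an adjusted p of 0.05 in edgeR's quasi-likelihood test over 18983 genes. All 33 points lie above 0 in the first comparison with 0 filled, and 8 and 11 points are filled in the others, all below 0.

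Directly compared, the libraries labelled TercPuma stood below G3 mTerc-/-Puma+/+ for 25 members, with a median of -0.17, and 0 passed (0.0158% of genes called lower, 4 members and 1180 of all genes at an unadjusted p under 0.05, 0 members by DESeq2 and limma-voom). The largest values were those of Mmrn1 (-1.04, adjusted p = 0.596), Trpc6 (-0.94, 0.583) and Gp6 (-0.73, 0.836). Gp1bb, Pf4, Mmrn1, Rab27b and Trpc6 were the 5 members whose groups did not overlap in that direction, a share of 15.2% of members and 2.41% of all genes tested. The interaction set the difference of TercPuma from Puma-/- against that of G3 mTerc-/-Puma+/+ from WT. By the labels this compares mTerc loss without and with PUMA, but Bbc3 stood near WT in the libraries labelled TercPuma, so their Puma-/- background is not shown by these counts. It was below 0 for 31 members, with a median of -0.93 and the largest values in Mmrn1 (-2.46, SE 0.54, adjusted p = 0.335), Trpc6 (-1.91, 0.537) and Gp6 (-1.86, 0.658). By edgeR 0 members passed, as against 0.0527% of all genes. At an unadjusted p under 0.05 there were 17 members and 936 of all genes, while DESeq2 called 8 members among 64 genes and limma-voom 0 among 5.

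**Figure D4:**
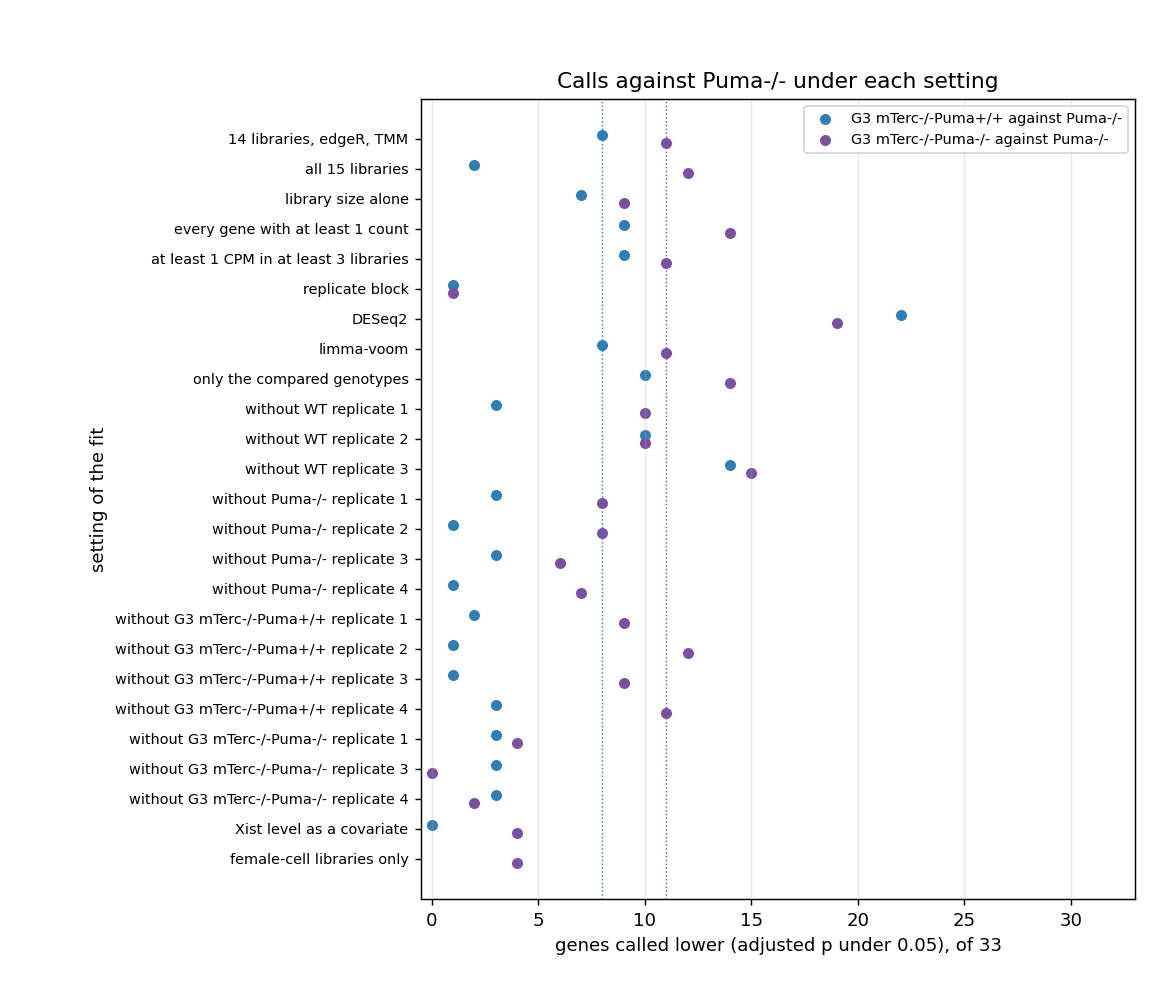
Number of the 33 members called lower against Puma-/- in each mTerc-/- genotype under each setting of the analysis and without each library; dotted lines mark the 8 and 11 calls of the reported fit. The count ranges from 0 to 22 in G3 mTerc-/-Puma+/+ and from 0 to 19 in the libraries labelled G3 mTerc-/-Puma-/-.

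Most members moved together from library to library. Over the 14 libraries, the median Pearson correlation of the 528 pairs of members was 0.669, and 0.372 after the genotype means were taken out. The libraries share genotype and cell composition in these values. Gp9 (r = 0.991), Gp1ba (0.988) and Gp5 (0.975) lay closest to the mean of the other members, and 19 members had an r over 0.8. The 6 with an r under 0.5 were Mylk (0.398), Nfe2 (0.294), Ptgs1 (0.0365), Bin2 (0.00403), Serpine2 (-0.0066) and Fli1 (-0.214). Marrow cells other than megakaryocytes also use these 6 genes, but they use Plek (r = 0.772) too. Whether such use bears on the r was not tested.

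Outside the list, the genes whose profile was most like the members' mean over the 14 libraries were Ly6g6f (r = 0.971), Ankrd35 (0.960), Lrrc32 (0.959), Pde3a (0.956), Rbpms2 (0.956), Src (0.953), Proser2 (0.952), Exoc3l2 (0.947), Kcnj5 (0.947) and Adcy5 (0.940). Of 18864 genes outside this and the next list, 23 had an r over 0.9. Ly6g6f averaged 1.59 ± 0.809 CPM in WT, 3.39 ± 1.59 in Puma-/-, 1.14 ± 0.272 for G3 mTerc-/-Puma+/+ and 0.809 ± 0.0534 in those labelled TercPuma (SD). Lrrc32 averaged 1.92, 3.84, 1.39 and 1.31 CPM in that order.

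A list of 86 other megakaryocyte and platelet genes, put together by function, had medians nearer to 0. Their median log2 fold change was 0.11 in Puma-/- against WT, -0.17 in G3 mTerc-/-Puma+/+ against Puma-/- and -0.13 in the libraries labelled TercPuma against Puma-/-. In each comparison with Puma-/-, 5 of the 86 were called, all lower, and 0 in the other comparisons by edgeR. Of all genes tested, 0.564% and 0.205% were called lower there. Without any 1 library, the count of the 86 ranged from 0 (without Puma-/- replicate 4) to 8 (without WT replicate 3) for G3 mTerc-/-Puma+/+ and from 3 (without Puma-/- replicate 3) to 7 (without WT replicate 3) for TercPuma. Vwf, the von Willebrand factor that the GPIb complex binds, averaged 16.9 ± 6.06 CPM in WT, 41.02 ± 6.41 in Puma-/-, 15.7 ± 2.11 for G3 mTerc-/-Puma+/+ and 10.4 ± 2.30 in those labelled TercPuma. It fell by 1.39 (adjusted p = 0.0156) and by 1.98 (adjusted p = 0.00329) against Puma-/-. Cavin2, a caveolar coat gene, Gnaz, a G-protein alpha subunit, and Mrvi1, the cGMP kinase substrate IRAG, fell in both comparisons too (-1.36, -1.49 and -1.21 in G3 mTerc-/-Puma+/+, and -1.97, -2.05 and -1.52 in the libraries labelled TercPuma). Prkca, protein kinase C alpha, fell by 0.75 in the former and Pde5a, the cGMP phosphodiesterase, by 1.02 in the latter. Other genes of the 86 went the opposite way. In Puma-/- against WT, 62 stood above 0 and 24 below. Against Puma-/-, 19 stood above 0 for G3 mTerc-/-Puma+/+, as did 23 for TercPuma. With the members' mean, 9 of the 86 had an r over 0.9, while Rab27a (-0.701), Abcc4 (-0.668) and F13a1 (-0.609) had the lowest. F13a1 averaged 942 CPM in WT and 660 in Puma-/-.

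Genes of other cells followed the members to different degrees. The 7 mast cell and basophil genes summed to 2398 to 3862 CPM in Puma-/-, against 1662 to 3439 in WT, 1252 to 2304 for G3 mTerc-/-Puma+/+ and 1283 to 2542 in those labelled TercPuma. Their log2 sum had an r of 0.769 with the members' mean over the 14 libraries. Prss34 (681 to 2161 CPM) and Mcpt8 (369 to 1226 CPM) held most of these sums. Cma1 and Tpsb2 stood at 10.5 and 11.6 CPM in G3 mTerc-/-Puma+/+ replicate 1 and at most at 1.11 and 0.864 CPM in the rest of the 14. The mast cell and basophil r therefore says little of the other genes of that list. The 9 stem and progenitor genes summed to 649.8 to 842 CPM in Puma-/-, 566 to 693 in WT, 452 to 677 for G3 mTerc-/-Puma+/+ and 592 to 658 in those labelled TercPuma (r = 0.741). Gata2, at 77.2 to 199 CPM of these sums over the 14 libraries, is also one of the 86 other megakaryocyte and platelet genes (r = 0.797). Flt3 stood at 139 to 187 CPM in Puma-/- and 109 to 123 in WT, and Cd34 at 152 to 230 and 208 to 218. The 9 erythroid genes, the lineage sharing a progenitor with megakaryocytes, summed to 202 to 283 CPM in Puma-/-, 213 to 276 in WT, 262 to 319.6 for G3 mTerc-/-Puma+/+ and 301 to 335 in those labelled TercPuma (r = -0.461). Tfrc alone held 149 to 234 CPM of these sums over the 14 libraries, more than the rest of the list in each. The erythroid sums and their r therefore say little of the other genes of the list. With the genotype means taken out, the r of the erythroid genes was 0.604, that of the mast cell and basophil genes 0.535 and that of the stem and progenitor genes 0.668. The erythroid sums of Puma-/- and WT overlapped, and those labelled TercPuma lay above both. By edgeR, 0 genes of these 3 lists were called in any comparison. The 8 endothelial genes summed to 51.1 to 67.9 CPM in Puma-/-, above all WT (42.5 to 45.7) and G3 mTerc-/-Puma+/+ (41.4 to 50.8) libraries, and to 42.8 to 64.4 in those labelled TercPuma (r = 0.541, and 0.185 within genotypes). Tie1 and Egfl7 held most of these sums in Puma-/- and WT, with Tie1 at 26.5 to 32.1 and 19.8 to 22.5 CPM, respectively. The 8 B cell genes summed to 63.1 to 73.4 CPM in Puma-/- and 57.7 to 64.03 in WT, to 37.95 to 50.6 for G3 mTerc-/-Puma+/+, below every other library, and to 62.96 to 129 in those labelled TercPuma (r = 0.099). The neutrophil (r = -0.197), monocyte and macrophage (-0.205), T and NK cell (-0.229) and stromal (-0.122) lists had negative correlations with the members' mean. Their most abundant genes led these sums, so the r need not describe each gene or the cell type. Over the 14 libraries, Nkg7 held 267.5 to 464 CPM of the T and NK cell sums and Mpo 6969 to 12270 of the neutrophil sums. The neutrophil gene Ngp stood at 196, 512.5 and 506 CPM in those labelled TercPuma, against 26.8 to 217 in the other genotypes. Immediate early genes, which respond to handling, summed to 2530.5 to 6596 CPM in WT, 2646 to 3825 in Puma-/-, 1823 to 4607 for G3 mTerc-/-Puma+/+ and 2707 to 6293 in those labelled TercPuma and had an r of -0.214. The part of these cells and of handling in the members' differences was not tested.

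The sex of the cells differed between the groups as well. Xist, transcribed from the inactive X chromosome, stood at 466 to 868 CPM in Puma-/- and 0.177 to 89.0 CPM in G3 mTerc-/-Puma+/+, while Ddx3y on the Y chromosome stood at 0.0178 to 0.0448 and 42.8 to 48.3 CPM. Female Puma-/- cells were thus set against mostly male G3 mTerc-/-Puma+/+ cells, and in that comparison sex and genotype cannot be told apart. In WT, Xist stood at 418, 212 and 1.73 CPM and Ddx3y at 21.3, 26.5 and 43.2 CPM. In the libraries labelled TercPuma, Xist stood at 663, 0.388 and 446 CPM and Ddx3y at 2.88, 46 and 4.27 CPM. WT replicates 1 and 2 thus held both RNAs, as did TercPuma replicates 1 and 4 with less Ddx3y. The source of this mixture was not tested. Every WT library held Ddx3y, so sex also differed between Puma-/- and WT. With the Xist level as a covariate, 0 members were called in G3 mTerc-/-Puma+/+ (median -0.78) and 4 in those labelled TercPuma (median -0.95), both against Puma-/-. Of all genes, 16 and 32 were called in that fit, where 152 and 58 were called without the covariate. A further fit, named female-cell, kept libraries with Xist over 100 and Ddx3y under 5 CPM. These were the 4 Puma-/- libraries and TercPuma replicates 1 and 4. The 2 TercPuma libraries still held Ddx3y (2.88 and 4.27 CPM), so this fit was not fully matched for sex. Its median was -1.37 and Gp1ba (-1.66, adjusted p = 0.0376), Pf4 (-2.14, 0.0429), Mmrn1 (-2.42, 0.0299) and Trpc6 (-2.34, 0.0265) passed, among 33 of all genes. Both of these fits were chosen after seeing the data.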

How the data were processed

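RNA of lineage-negative marrow cells was extracted with a micro column kit and sequenced as stranded, poly(A)-selected libraries. The submitters' notes name Trimmomatic 0.38, STAR 2.5.2b and mm10. The deposited values are raw counts per gene made by the authors, and the strand setting of the counting is not given in the sources used here. Symbols came from GENCODE vM21, where 563 identifiers had none and held 0.0643% of counts.

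The 33 members, the lists and the roles were chosen with earlier results of these data known. Counts of 14 libraries were normalized by TMM, filtered with filterByExpr and fitted for all 4 genotypes with edgeR 4.0.16 (R 4.3.3) by the quasi-likelihood test. Benjamini-Hochberg adjustment ran over 18983 genes with a threshold of 0.05. SE is the absolute log2 fold change divided by the square root of F. Log2 CPM used a prior count of 2. Values per library are given for defining members, called members and the 3 largest changes per comparison. Alternatives were DESeq2 1.42.0, limma-voom (limma 3.58.1), other filters and scaling, a replicate block, all 15 libraries, the compared genotypes alone and leaving out each library. Fits with Xist or with the libraries named female-cell (Xist over 100 and Ddx3y under 5 CPM) were added after seeing the data. Counts of replicate libraries were further apart than sampling noise (chi-square per degree of freedom 41.8 to 772), so no library was a duplicate. The scripts were tested on simulated counts. Across replicate numbers, 18 pairs of libraries with the same number had correlations of -0.252 to 0.177, with 3 over 0.1.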

Additional observations from a re-analysis of the deposited data

Results flagged for a closer look

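Single libraries stood apart from the others of their genotype in 8 of 99 tests of a gap by Dixon's criterion, where chance gives about 1 in 20. The tests covered the 3 genotypes with 4 libraries, so no WT library, replicate 3 included, was tested. In Puma-/-, replicate 3 was far above the other libraries for Gp1bb (14.01 against 6.87 to 8.06 CPM), Treml1 (23.0 against 10.49 to 11.6), Ppbp (84.4 against 44.8 to 48.6) and F2rl2 (15.3 against 10.4 to 10.96). In G3 mTerc-/-Puma+/+, replicate 2 was low for Itgb3 (25.2 against 46.5 to 48.8 CPM), and replicate 1 was high for Mylk (8.01 against 6.06 to 6.36). In the libraries labelled TercPuma, all 4 replicates being used for this, replicate 2 was high for Gp9 (6.76 against 3.19 to 3.57 CPM) and replicate 1 for Gp6 (0.498 against 0.353 to 0.361).

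TercPuma replicate 2, which is in no comparison, exceeded every library of the other genotypes for 5 members. The share of all genes tested that did so was not computed, so the count is no result about the list. It held 225.5 CPM of Serpine2 (79.3 at most elsewhere), 10.3 of Gng11 (9.90), 80.8 of Ptgs1 (51.1), 25.8 of Mylk (13.2) and 11.7 of Myl9 (8.80). In the same library the stromal genes summed to 2309 CPM, the erythroid genes to 1191 and the endothelial genes to 87.5, and their part in these values was not tested.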

How the results depend on the processing

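No result changed direction under any alternative. Of the 33 members, DESeq2 called 7 in Puma-/- against WT, 22 in G3 mTerc-/-Puma+/+ against Puma-/-, 19 in TercPuma against Puma-/- and 8 for the interaction, where edgeR called 0, 8, 11 and 0. DESeq2 also called 996 against 152 and 287 against 58 of all genes tested in the comparisons with Puma-/-, and 17 and 12 of the 86 other megakaryocyte and platelet genes against 5 and 5. Using all 15 libraries gave 2 in G3 mTerc-/-Puma+/+ against Puma-/-, among 24 of all genes. The replicate block gave 1 in each comparison with Puma-/-, among 43 and 21 of all genes. The correlations gave no sign that replicate numbers pair the libraries, since only 3 of 14 correlated best with their own number. Such weak correlations cannot exclude a pairing. The Xist covariate gave 0 and 4. The fit named female-cell, not fully matched for sex, gave 4 with a median of -1.37, from fewer libraries. Leaving out 1 library gave 1 to 14 calls for G3 mTerc-/-Puma+/+ and 0 to 15 for TercPuma, both against Puma-/-, and for the 86 other genes 0 to 8 and 3 to 7. The members' medians then ranged from -1.04 to -0.79 and from -1.38 to -1.02 in these comparisons, and from -0.68 to -0.32 in TercPuma against WT. The other filters, scaling by library size alone, limma-voom and fits of only the compared genotypes kept the member counts within 1.5 times. The cause of the other changes was not tested.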

Other observations

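TercPuma replicate 2 was mixed across the list. Pf4 (12.9 CPM), Treml1 (2.03), Trpc6 (0.663) and Mmrn1 (1.53) were lower than in the other TercPuma libraries, whereas Gp5 (9.55), Gp9 (6.76) and Rab27b (5.01) were higher than in any of them. The mean log2 CPM of the 33 genes there was 3.71. Its stem and progenitor genes summed to 392 CPM, the lowest of the 15 libraries, but they did not move alike. Flt3 (3.45 CPM) and Cd34 (86.1) had their lowest values of the 15 there, and Ly6a (47.96) and Procr (3.75) their highest.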
